A study of Rattus norvegicus with 24 samples.

Results

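Catgut group 2 was compared with the control group across all genes of rat quadriceps femoris, the large extensor muscle of the thigh. The 12 libraries were taken by their treatment label alone, 6 labelled as catgut embedding at acupoint set 2 and 6 labelled as blank, out of 24 libraries in the series. All animals were Sprague-Dawley rats, 6 weeks old at the start, and the methods of the study give males and females in equal number in each group. Control rats were fed normally and did not train. Rats of catgut group 2 were anaesthetised with ether and received pieces of collagen thread by needle at Bai Hui, Qiang Feng, Yang Wa, Xie Qi, Qian Shen, Han Gou and Fei Shu. After a week of recovery they trained on a treadmill for 7 weeks at rising speed and then ran to exhaustion, and the muscle was taken after that last session. Rats that tried to leave the running area met an electrified part that gave a painful stimulus. The groups therefore differed in anaesthesia, thread, training, electric stimulus and the final run together, and the share of each cannot be told apart in this comparison. The remaining groups of the series are the treadmill group, which trained and ran without thread, and catgut group 1, which had the same acupoints apart from Fei Shu. The labels give no sex, hour of sampling, date or batch.

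As background, hard contraction switches on immediate-early genes in muscle fibres and in the vessels between them. These genes encode transcription factors, signalling inhibitors and secreted proteins, and their mRNAs are made quickly and decay quickly. Heat, acid and misfolded protein in a working fibre also release heat shock factor, which drives genes of chaperones, the proteins that refold others. Endurance training carried on for weeks is known for slower changes, among them more slow oxidative fibres, more mitochondria and more enzymes of fatty acid use.

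The total count per library ran from 61682752 to 78278080 in the control group and from 54330979 to 69153343 in catgut group 2, a lower depth on average in the trained animals (exact permutation test, two-sided, p = 0.0108, adjusted p = 0.0162 over 3 library measures). Genes of the mitochondrial genome took 13.1% ± 1.67 of the counts in the control group and 17.9% ± 3.50 in catgut group 2 (SD, n = 6, exact permutation test, p = 0.0108, adjusted p = 0.0162). Markers of skeletal muscle dominated all 12 libraries, with a summed level of 79783 to 101126 FPKM over 8 genes in control and 78829 to 84545 FPKM in catgut 2. Control 2 and control 4 stood apart. In control 2 the 14 liver markers summed to 298.7 FPKM, against at most 17.9 FPKM in any other control library, and in control 4 the 11 interferon-response genes summed to 748.6 FPKM, against at most 194.5 FPKM. Y-linked genes reached a mean level over 1 on the log2(CPM + 1) scale in 3 of 6 control libraries and in 2 of 6 catgut 2 libraries. The count in catgut 2 differs from the equal numbers of males and females given in the methods, and the reason was not tested. These are bulk samples, in which fewer cells of a type and less RNA per cell cannot be told apart.

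Of 14772 genes tested, 75 passed an adjusted p of 0.05 in edgeR's quasi-likelihood test, 0.508% of the tested genes. Of these, 48 were higher in catgut group 2 (0.325%) and 27 were lower (0.183%). At an unadjusted p under 0.05 there were 2428 genes. The DEG criterion of the study, here taken as group means of FPKM that differ by a ratio above 1.5 or below 0.667 and p below 0.05 before adjustment, was met by 520 higher genes (3.52%) and 360 lower genes (2.44%), 880 in all (5.96%). All 6 catgut 2 libraries lay above every control library for 107 genes (0.724%) and below every control library for 54 genes (0.366%). Among the 75 genes, 36 of the 48 higher and 15 of the 27 lower showed no overlap between the groups. The count of 75 depended on single libraries. It fell to 26, 13, 22 and 19 without control 1, 3, 5 or 6 and to 12, 15, 25, 16 and 36 without catgut 2 replicate 1, 2, 3, 5 or 6, and it rose to 492 without catgut 2 replicate 4. With control 2 and control 4 left out together it was 59, of which 39 were among the 75. Called in every one of the 12 fits that left out 1 library were 11 genes, among them Hspa1b, Arc, Dnajb1, Dusp5, Apold1, Ccn1, Fam151a, Tcim, Csrnp1 and Amotl2.

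The largest rise among the genes named by rule was in heat shock genes. Of 21 heat shock genes tested, 4 were called higher and 0 lower, beside 0.325% and 0.183% of all tested genes. The study's criterion was met upward by 8 and downward by 0, beside 3.52% and 2.44%. Estimates were positive for 16 and negative for 5. The median log2 fold change was 0.45, beside -0.00495 over all tested genes. Hspa1b, the inducible cytosolic chaperone of stressed cells (listed at chromosome 20, 4877324 to 4879779, in a build not given in the sources used here), had 7.34 FPKM in the lowest, 13.9 in the median and 21.1 in the highest control library. Its level in catgut 2 was 185 at the lowest, 430.4 at the median and 718.8 FPKM at the highest. No catgut 2 library came near the control range, and the log2 fold change was 5.002 ± 0.424 (SE, adjusted p = 0.00045). Dnajb1, the co-chaperone that hands unfolded proteins to it (chromosome 19, 24747178 to 24750919), went from a control range of 4.19 to 7.62 FPKM with a median of 5.79 to a catgut 2 range of 22.4 to 131 FPKM with a median of 62.6. The log2 fold change of Dnajb1 was 3.54 ± 0.389 (SE, adjusted p = 0.00303). In both genes catgut 2 replicate 4 was the lowest trained library and still lay above every control.

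Hsp90aa1, the stress-inducible form of the chaperone that matures kinases and steroid receptors, had 9.01 to 15.9 FPKM in control and 14.6 to 56.2 FPKM in catgut 2 (log2 fold change 1.56 ± 0.259, adjusted p = 0.0267). Only catgut 2 replicate 6, at 14.6 FPKM, fell inside the control range. Hspb1, a small heat shock protein that guards the contractile cytoskeleton, had 153.3 to 285.9 FPKM in control and 245.7 to 685.3 FPKM in catgut 2 (log2 fold change 1.302 ± 0.253, adjusted p = 0.0451). Here 5 of 6 trained libraries lay above every control. The heat shock genes that did not pass the test included Dnaja1 at a log2 fold change of 0.82 (adjusted p = 0.0919), Cryab at 0.82 (adjusted p = 0.174), the constitutive Hspa8 at 0.27 (adjusted p = 0.22) and Hsp90ab1 at 0.14 (adjusted p = 0.38). Leaving out 1 library gave between 2 and 6 higher heat shock genes. The count of 4 became 2 without control 1, 3, 5 or 6 and without catgut 2 replicate 1, 2, 3 or 5, 6 without catgut 2 replicate 4, 5 without catgut 2 replicate 6, 3 without control 4 and 2 without control 2 and control 4. A further list held 17 genes of the unfolded protein response, the counterpart of heat shock in the endoplasmic reticulum, and of the amino acid stress response. This list had 0 called in edgeR's test, 0 DEGs and a median log2 fold change of 0.012. At an unadjusted p under 0.05 it had 1, beside 2428 of all 14772 tested genes.

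A second entry for this chaperone, listed as LOC108348108 and described in the table as heat shock protein 1A, was nearly silent in the controls, with 0.0233 to 0.182 FPKM in 5 libraries and 3.76 FPKM in control 3. In catgut 2 it had 45.96 FPKM at the lowest, 293.2 at the median and 566.8 at the highest (adjusted p = 0.0229). The paralogs are near-identical, RefSeq gives the symbol Hspa1b to this entry, and the counting could have split their reads, so the level of each alone is uncertain.

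The stretches upstream of 2 of these genes are shown because they match letters searched for as the heat shock element, the DNA motif of heat shock factor. Each is the run of 150 bases before the RefSeq gene start in build GRCr8, 5′ to 3′ on the gene's strand, with the letters GAANNTTC or TTCNNGAA in capitals. Dnajb1 is at chr19:41431142-41431291 and Hspb1 at chr12:26432302-26432451, both on the minus strand.
Dnajb1: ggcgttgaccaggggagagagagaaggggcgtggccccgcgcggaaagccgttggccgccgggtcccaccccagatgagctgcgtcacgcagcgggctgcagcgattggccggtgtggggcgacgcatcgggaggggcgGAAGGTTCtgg
Hspb1: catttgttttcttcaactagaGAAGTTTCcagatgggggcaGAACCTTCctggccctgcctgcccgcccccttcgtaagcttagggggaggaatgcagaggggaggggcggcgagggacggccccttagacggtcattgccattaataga
Of the 48 higher genes, 36 had a RefSeq window of 250 bases before to 50 bases after the start. A match to these letters was in 8 of these windows, among them Ccn1, Nr4a2 and Gsta1. Of the 27 lower genes, 26 were looked up. A window was found for 20, and 2 held a match, Xirp2 and Eif5b. Among all 33469 windows the share was 15.9%. Both spellings read the same on either strand, and a match describes letters in this window only.

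**Figure D1:**
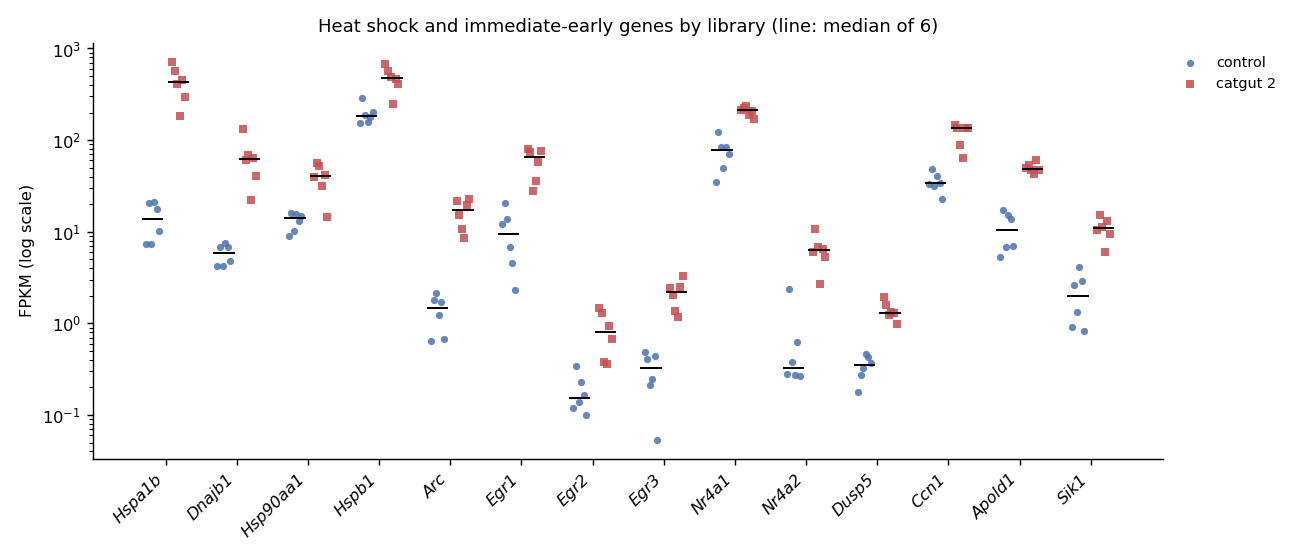
FPKM on a log axis for 14 heat shock and immediate-early genes in the 6 control (circles) and 6 catgut 2 (squares) libraries, with the median of each group as a line. The groups do not overlap for 12 of the 14 genes. For Hsp90aa1 and Hspb1, 1 catgut 2 library lies within the control range.

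Immediate-early genes were the list with most called members. It was also the largest list, and the lists were chosen with earlier results of these data known. Of 33 tested, 8 were called higher and 0 lower, beside 0.325% and 0.183% of all tested genes. The study's criterion was met upward by 25 and downward by 0, beside 3.52% and 2.44%. The median log2 fold change was 1.28. The estimate was above 0 for 32 of the 33, with Dusp2 at -1.08 (adjusted p = 0.643). All 6 catgut 2 libraries lay above every control for 10 of the 33, beside 0.724% of all tested genes. Leaving out 1 library gave between 3 and 21 called members and a median between 1.20 and 1.47. Without control 2 there were 18, without control 4 there were 6, and without both there were 13. The count was 5 without control 1, 3 without control 3 or 5, 4 without control 6, 3 without catgut 2 replicate 1, 2 or 5, 4 without replicate 3 or 6, and 21 without replicate 4.

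Arc, which binds the cytoskeleton and is best known from active synapses, rose most in this list. Its control libraries had 0.639 FPKM at the lowest, 1.48 at the median and 2.14 at the highest, and its catgut 2 libraries 8.48, 17.2 and 22.7 FPKM. The lowest trained library was thus above the highest control, and the log2 fold change reached 3.62 ± 0.383 (SE, adjusted p = 0.00296). The early growth response factors, zinc finger transcription factors of the first wave, moved in the same direction. Egr1 had 2.31 to 20.4 FPKM in control and 27.7 to 79.5 in catgut 2 (log2 fold change 2.57 ± 0.497, adjusted p = 0.0448). Egr2 had 0.101 to 0.343 and 0.359 to 1.48 FPKM (2.25 ± 0.438, adjusted p = 0.0456). Egr3 had 0.0533 to 0.483 and 1.18 to 3.26 FPKM (2.79 ± 0.458, adjusted p = 0.0246). In none of the 3 did the groups overlap, although Egr2 and Egr3 were low in absolute terms.

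Of the orphan nuclear receptors of the Nr4a family, which in muscle act on genes of glucose and fat use, Nr4a1 and Nr4a2 rose. Nr4a1 went from 35.1 to 124.1 FPKM in control to 169.9 to 234.1 FPKM in catgut 2 (log2 fold change 1.46 ± 0.256, adjusted p = 0.0375). Nr4a2 was at 0.266 to 0.626 FPKM in 5 controls, at 2.35 in control 2, and at 2.70 to 10.7 FPKM in catgut 2 (3.15 ± 0.595, adjusted p = 0.0417). Nr4a3 had a log2 fold change of 2.73 with an adjusted p of 0.0851.

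Dusp5, a phosphatase that switches off ERK in the nucleus, had 0.178 to 0.460 FPKM in control and 0.993 to 1.93 FPKM in catgut 2 (log2 fold change 2.05 ± 0.247, adjusted p = 0.00461). Spry4, another inhibitor of the same kinase cascade that the list does not hold, went from 1.34 to 2.29 FPKM in control to 2.70 to 5.38 in catgut 2 (1.33 ± 0.202, adjusted p = 0.0195). Both sets of libraries were fully separate. Ccn1, a secreted matrix protein of stretched and regenerating tissue, had 22.6 FPKM at the lowest, 33.6 at the median and 48.2 at the highest in control, and 64.5, 134.6 and 145.8 FPKM in catgut 2 (1.77 ± 0.238, adjusted p = 0.0118). The AP-1 subunits Fos (log2 fold change 1.60, adjusted p = 0.263), Fosb (2.41, adjusted p = 0.0669) and Junb (1.28, adjusted p = 0.0784) did not pass. Fos had 121.0 FPKM in control 2, against 3.70 to 33.8 FPKM in the other controls and 60.9 to 148.6 in catgut 2. Atf3 likewise had 8.38 FPKM in control 2 and 0.711 to 2.45 in the other controls, against 5.20 to 29.9 FPKM in catgut 2 (2.44, adjusted p = 0.0899).

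The CArG box, the site of serum response factor, was present in the windows of 4 of the 36 higher genes and in 0 of the 20 lower genes, and in 1.64% of all windows. Those 4 were Dusp5 (first base at -82 and -72 from the start), Egr1 (-105 and -83), Egr2 (-83) and Zfp36 (-32). Zfp36, which shortens the life of many immediate-early mRNAs and was chosen after its values were seen, had 19.8 to 54.4 FPKM in control and 56.1 to 99.2 in catgut 2 (log2 fold change 1.13 ± 0.219, adjusted p = 0.0448). The 150 bases before the start of 3 of them are shown with the box in capitals (RefSeq, GRCr8, 5′ to 3′ on the gene's strand), at chr1:262543624-262543773 on the plus strand for Dusp5, and on the minus strand at chr20:21054442-21054591 for Egr2 and chr1:92799109-92799258 for Zfp36.
Dusp5: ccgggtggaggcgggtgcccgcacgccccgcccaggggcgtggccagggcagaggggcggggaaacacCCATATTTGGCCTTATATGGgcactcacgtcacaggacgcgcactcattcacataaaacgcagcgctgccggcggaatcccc
Egr2: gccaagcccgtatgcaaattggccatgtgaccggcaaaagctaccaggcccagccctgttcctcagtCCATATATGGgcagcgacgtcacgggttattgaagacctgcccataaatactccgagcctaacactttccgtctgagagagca
Zfp36: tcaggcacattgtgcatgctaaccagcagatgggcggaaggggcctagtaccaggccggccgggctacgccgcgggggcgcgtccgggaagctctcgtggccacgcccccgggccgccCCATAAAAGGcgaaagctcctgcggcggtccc
In Dusp5 the 2 boxes lie end to end. The full cAMP response element TGACGTCA was in 0 of the 36 and 0 of the 20 windows (1.83% of all), and the E-box CACGTG in 2 of the 36 and 2 of the 20 (6.42% of all).

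Further genes rose that belong to no list used here. Apold1, an early-response gene of endothelial cells, had 5.33 FPKM at the lowest, 10.4 at the median and 17.2 at the highest in control, and 43.0, 48.7 and 60.6 in catgut 2 (log2 fold change 2.22 ± 0.27, adjusted p = 0.00461). The trained libraries lay close together and far above the controls. Sik1, a kinase induced by cAMP that restrains CREB coactivators, went from 0.836 to 4.10 FPKM to 6.06 to 15.1 FPKM (2.40 ± 0.367, adjusted p = 0.0195). Csrnp1, a nuclear protein induced by axin, went from 0.737 to 2.30 FPKM to 4.68 to 7.37 FPKM (1.86 ± 0.261, adjusted p = 0.0124).

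Tcim, a small regulator of Wnt signalling, had 2.14 to 6.29 FPKM in control and 8.90 to 15.7 in catgut 2 (log2 fold change 1.59 ± 0.222, adjusted p = 0.0124). Rgcc, a cell cycle regulator expressed in vessels, had 12.6 to 33.5 and 43.5 to 68.9 FPKM (1.41 ± 0.222, adjusted p = 0.0229). Amotl2, an angiomotin of cell junctions that binds the Hippo pathway protein YAP, had 3.45 to 6.20 and 5.604 to 10.8 FPKM (0.96 ± 0.137, adjusted p = 0.0132). Its catgut 2 replicate 6, at 5.604 FPKM, was the single trained library inside the control range.

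Fam151a, for which no role is given here, had 0.408 to 0.799 FPKM in control and 1.46 to 2.73 in catgut 2 (log2 fold change 1.67 ± 0.23, adjusted p = 0.0124). Dhtkd1, a mitochondrial dehydrogenase of lysine breakdown, had 0.718 to 1.18 and 1.38 to 1.84 FPKM (0.78 ± 0.125, adjusted p = 0.0245). Neither overlapped between groups. Among the other higher genes, chosen after their values were seen, were Actb, the cytoplasmic actin often used as a reference (99.3 to 194.9 FPKM in control and 173.6 to 248.1 in catgut 2, log2 fold change 0.69, adjusted p = 0.0417), and Aqp1, the water channel of capillaries (108.8 to 163.5 and 184.4 to 302.8 FPKM, 0.82, adjusted p = 0.0417).

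Also higher were Plk3, a stress-activated kinase (0.376 to 1.37 FPKM in control and 1.78 to 4.15 in catgut 2), Rhob, an inducible small GTPase (27.0 to 53.9 and 61.6 to 92.6 FPKM), and Siah2, a ubiquitin ligase of the hypoxia response (3.09 to 3.96 and 5.07 to 6.49 FPKM). None of these 3 overlapped between the groups, with adjusted p-values of 0.0246, 0.0245 and 0.0291. Lrp4, the agrin receptor of the neuromuscular junction, was at 0.717 to 1.20 FPKM in control and 1.28 to 2.50 in catgut 2 (adjusted p = 0.0392). Slc25a5, an ADP/ATP carrier of the inner mitochondrial membrane, was at 12.3 to 20.8 and 18.5 to 27.3 FPKM, overlapping ranges (adjusted p = 0.0426).

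The 27 lower genes changed less, with a median log2 fold change of -0.66 against 1.31 for the 48 higher genes. Cmya5, a costamere protein, had 270.6 to 335.1 FPKM in control and 140.5 to 264.9 in catgut 2 (log2 fold change -0.62 ± 0.111, adjusted p = 0.0392). Jph2, which holds the sarcoplasmic reticulum against the transverse tubule, had 110.001 to 157.8 and 52.6 to 99.1 FPKM (-0.69 ± 0.125, adjusted p = 0.0392). Xirp2, an actin-binding protein of the myotendinous junction and of damaged fibres, had 59.9 to 108.1 and 30.8 to 54.2 FPKM (-0.75 ± 0.136, adjusted p = 0.0392). The groups were separate in all 3. Synm, an intermediate filament protein chosen after its values were seen, had 92.6 to 145.2 and 50.8 to 104.1 FPKM (-0.72, adjusted p = 0.0435), with control 2 the lowest control. Filip1, an interactor of filamin, had 6.45 to 8.28 and 3.47 to 6.56 FPKM (-0.64 ± 0.116, adjusted p = 0.0392).

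Rbm20, the splicing factor of titin and other sarcomere transcripts, had 8.80 to 12.9 FPKM in control and 5.26 to 7.72 in catgut 2 (log2 fold change -0.76 ± 0.136, adjusted p = 0.0392). Kmt5a, a histone methyltransferase, had 13.2 to 18.1 and 6.34 to 11.2 FPKM (-0.77 ± 0.114, adjusted p = 0.0193). Rbm17, a spliceosome protein, showed the smallest change of the named genes, from 24.8 to 30.0 FPKM to 19.6 to 24.3 FPKM (-0.27 ± 0.0484, adjusted p = 0.0392). All 3 were separate between groups. Cux1, a homeobox repressor, went from 5.63 to 6.73 FPKM to 3.44 to 4.77 FPKM (-0.56 ± 0.0911, adjusted p = 0.0245). The transcription factor listed as Nf1x went from 22.2 to 33.4 FPKM to 13.7 to 20.5 FPKM (-0.59 ± 0.0953, adjusted p = 0.0245), and Golga4, a tether of the Golgi apparatus, from 31.2 to 44.3 FPKM to 16.1 to 27.0 FPKM (-0.77 ± 0.117, adjusted p = 0.0195).

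Stat5b, the transcription factor that carries the growth hormone signal, had 21.8 FPKM at the lowest, 25.97 at the median and 27.3 at the highest in control, and 11.6, 15.9 and 22.4 FPKM in catgut 2 (log2 fold change -0.66 ± 0.118, adjusted p = 0.0392). Catgut 2 replicate 3, at 22.4 FPKM, was the one trained library within the control range. Socs7, a feedback inhibitor of cytokine signalling, had 3.30 to 4.78 and 2.35 to 3.06 FPKM (-0.63 ± 0.113, adjusted p = 0.0392). Thrsp, a thyroid-hormone-responsive gene of fatty acid synthesis, had the deepest fall of the named genes, from a control median of 11.5 FPKM to a catgut 2 median of 2.53 (-1.84 ± 0.333, adjusted p = 0.0392). Control 2, at 3.95 FPKM, lay among the trained libraries, and the remaining controls were at 10.5 to 17.1 FPKM. Thrsp was the single called gene of 11 tested genes of lipid synthesis.

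**Figure D2:**
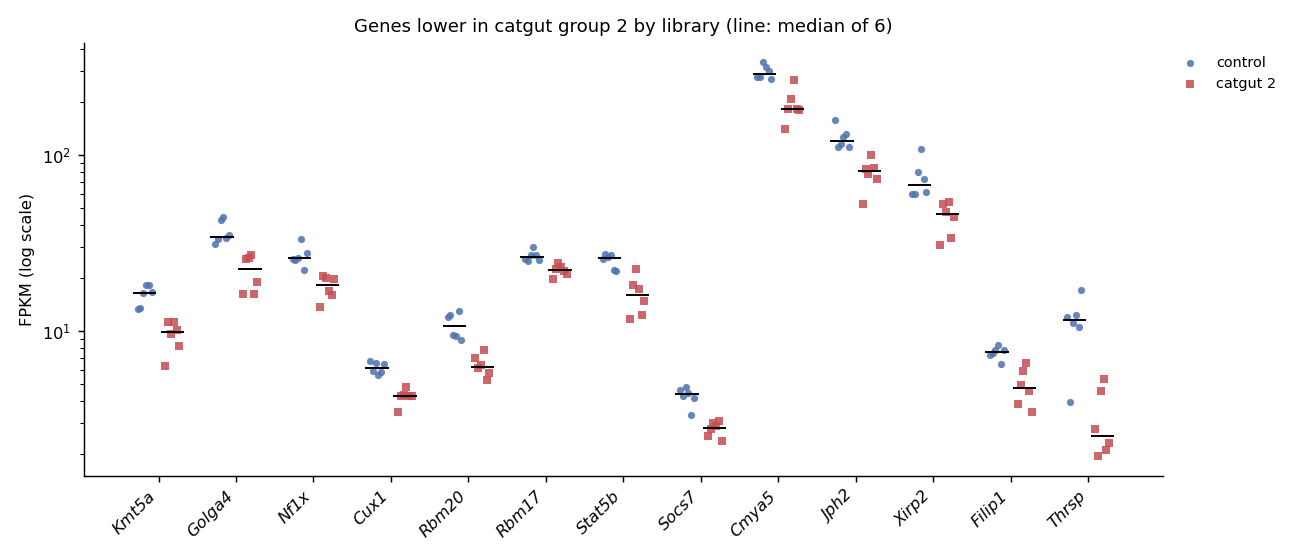
FPKM on a log axis for 13 genes named as lower in catgut group 2, by library (circles, control; squares, catgut 2; line, median of 6). The groups do not overlap for 10 of the 13; Stat5b, Filip1 and Thrsp each have trained libraries within the control range.

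The called lower genes were long. Their median transcript length, worked back from counts and FPKM, was 3728 bases, against 2484 bases for the called higher genes and 2177 bases for all tested genes. The mean level of the longest minus the shortest transcripts in a library was 0.037 ± 0.128 in control and -0.060 ± 0.179 in catgut 2 on the log2 scale (SD, n = 6, exact permutation test, two-sided, p = 0.286, adjusted p = 0.286 over 3 measures), and the part of length in the lower calls was not tested.

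**Figure D3:**
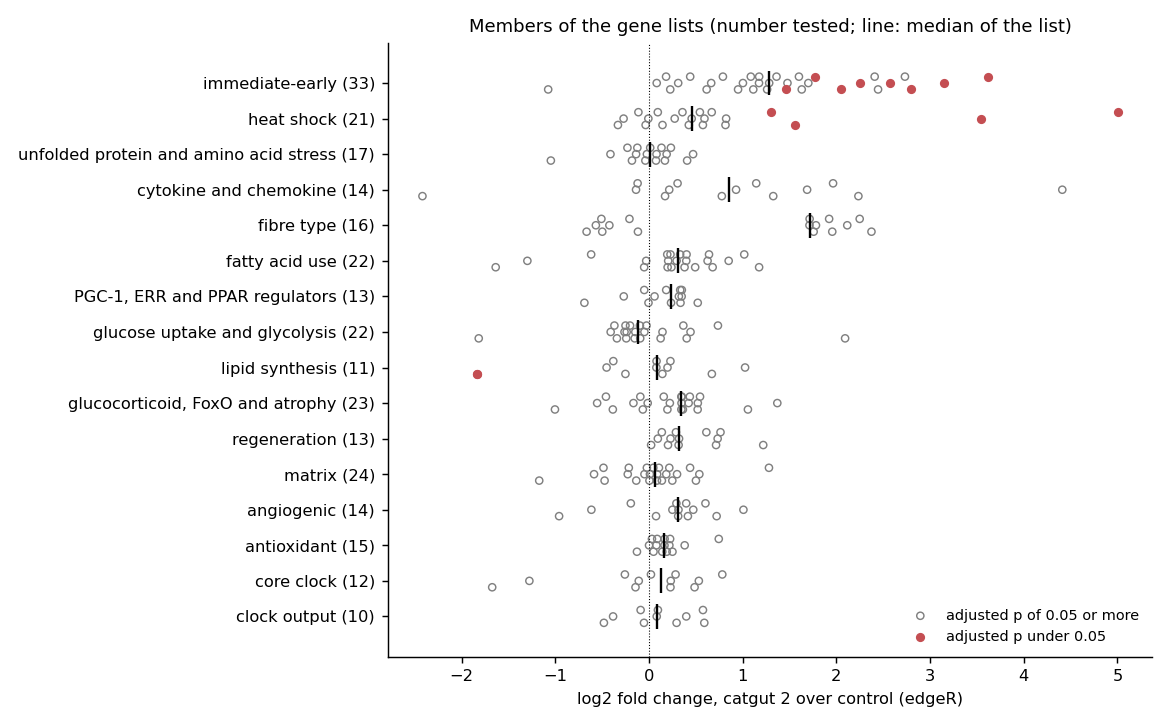
Log2 fold change of catgut 2 over control (edgeR) for each tested member of 16 gene lists, with filled points for an adjusted p under 0.05 and a line at the median of each list. The fibre type list mixes 9 slow-fibre and 7 fast-fibre genes, so its line describes neither class. Called members are seen in the immediate-early (8), heat shock (4) and lipid synthesis (1) lists only.

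Fibre-type genes split by class without a call. All 9 slow-fibre genes had a positive estimate, with log2 fold changes from 1.71 to 2.37, and all 7 fast-fibre genes had a negative one, from -0.12 to -0.67. None passed edgeR's test, with lowest adjusted p-values of 0.166 and 0.122, while 3 slow genes (Atp2a2, Casq2 and Tpm3) and 1 fast gene (Pvalb) met the study's criterion. Over all tested genes, that criterion was met upward by 3.52% and downward by 2.44%. At an unadjusted p under 0.05 there were 8 of these 16 genes, beside 2428 of all 14772. DESeq2 called 0 higher and 3 lower (Actn3, Myh1 and Tnnt3), beside 372 and 323 of all 14772. The slow genes summed to 558.8, 1939, 366.5, 58.7, 113.5 and 56.4 FPKM in control 1 to 6 and to 3307, 349.9, 1485, 622.3, 1538 and 4710 FPKM in catgut 2 replicates 1 to 6. Within each group the highest library was many times the lowest. Control 2 lay above 4 of the trained libraries, and catgut 2 replicate 2 lay below control 1, 2 and 3.

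Myh7, the heavy chain of slow myosin, had 0.0984 FPKM at the lowest, 11.99 at the median and 144.2 at the highest in control, and 25.5, 109.8 and 417.5 FPKM in catgut 2 (log2 fold change 2.12, adjusted p = 0.409). The highest control was control 2, which was also the highest control for Tnni1, Tnnc1, Tnnt1, Tpm3 and Myl3. Without control 2 there were still 0 called, and 8 slow genes met the study's criterion in place of 3, now with Myh7, Myl3, Tnnc1, Tnni1 and Tnnt1. The median over all 16 genes was then 2.33 in place of 1.71, but it mixes slow and fast genes and describes neither class. Without control 2 and control 4 the criterion was met by 8 slow genes and by 3 fast genes (Actn3, Casq1 and Pvalb). Tnnt3 was called lower without control 4, and Actn3 and Myh1 were called lower without catgut 2 replicate 4. The fast side was steadier. Myh1, a heavy chain of fast myosin, had 2943 to 4121 FPKM in control and 1689 to 3275 in catgut 2 (-0.51, adjusted p = 0.122), with 5 of 6 trained libraries below every control. Actn3, the actinin of fast fibres, had 3275 to 4331 and 1430 to 3887 FPKM (-0.57, adjusted p = 0.163), again 5 of 6 below. How deep in the quadriceps each piece was cut is not given in the labels, and its part was not tested.

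**Figure D4:**
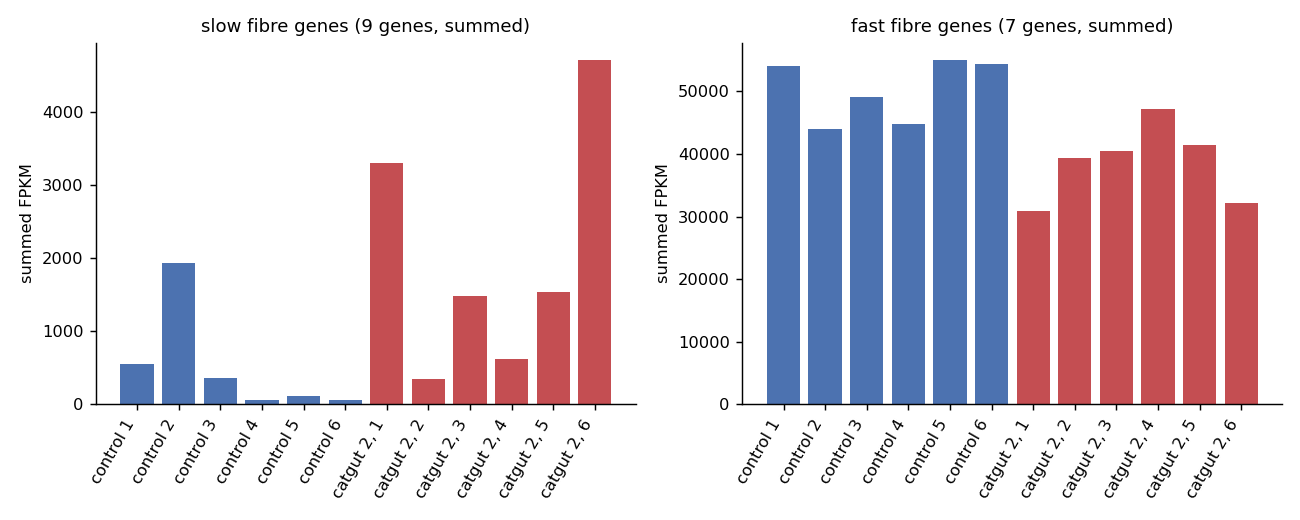
Summed FPKM of 9 slow-fibre genes (left) and 7 fast-fibre genes (right) in each library, control in blue and catgut 2 in red. Slow-fibre sums run from 56.4 to 1939 in control and from 349.9 to 4710 in catgut 2 and overlap, and fast-fibre sums are lower in 5 of 6 trained libraries than in any control.

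Genes of mitochondrial respiration were shifted a little and none was called. Of 126 tested genes in the KEGG pathway of oxidative phosphorylation, 108 had a positive estimate and the median log2 fold change was 0.256. The study's criterion was met upward by 6 of them (4.76%), among them Cox7a1, Cox8b and Mt-co1, and downward by 0. Over all tested genes with a KEGG pathway it was met upward by 4.24% and downward by 2.41%. Of the 37 tested genes of the mitochondrial genome, 28 were positive with a median of 0.126. Mb, the oxygen store myoglobin, had 4151 to 7030 FPKM in control and 5536 to 15644 in catgut 2 (0.91, adjusted p = 0.124). Of 13 tested regulators of this program, among them Ppargc1a at 0.35 (adjusted p = 0.205), Ppara at 0.52 (adjusted p = 0.275) and Ppard at 0.35 (adjusted p = 0.38), 0 were called and 1, Lpin1, met the study's criterion downward (-0.69, adjusted p = 0.132).

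Genes of fatty acid use were mostly above 0 without a call, and control 2 stood apart in them. Of 22 tested genes of fatty acid use, 0 were called, 4 met the study's criterion upward (Lpl, Cpt2, Fabp3 and Acadvl) and 1 downward (Ucp3), and the median log2 fold change was 0.31. Over all tested genes, 3.52% met the criterion upward and 2.44% downward. Of the 22 genes, 7 had an unadjusted p under 0.05, beside 2428 of all 14772 tested genes. DESeq2 called 4 higher (Acadl, Acadvl, Cpt2 and Lpl), beside 372 higher of all 14772. Without control 2 the criterion was met by 7 upward and 0 downward with a median of 0.49, without control 4 by 2 and 2 with a median of 0.24, and without both by 7 and 1 with a median of 0.47. Lpl, the lipase that frees fatty acids from circulating triglyceride at the capillary wall, had 30.6 to 40.2 FPKM in 5 controls and 89.1 in control 2, against 46.04, 65.1, 109.7, 120.2, 128.3 and 135.6 FPKM in catgut 2. The log2 fold change was 1.17 ± 0.344 (SE, adjusted p = 0.136). Without control 2 it was 1.51 with an adjusted p of 0.0489, and without control 2 and control 4 it was 1.42 with an adjusted p of 0.0681. Fabp3, the fatty acid carrier of muscle, had 991.1 FPKM in control 2, 321.3 to 444.0 in the other controls and 282.1 to 1845 in catgut 2 (1.02, adjusted p = 0.27). Dgat2, which makes triglyceride, had 10.6 to 17.1 and 18.2 to 40.2 FPKM and did not overlap (1.02, adjusted p = 0.0577).

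In the KEGG pathway of PPAR signalling, the receptors that sense fatty acids, 65 genes were tested and 0 were called. The study's criterion was met upward by 5 (7.69%) and downward by 4 (6.15%), beside 4.24% and 2.41% of all tested genes with a KEGG pathway. The 4 lower genes were Apoa2, Apoa5, Apoc3 and Fabp1. Without control 2 the pathway had 11 higher and 0 lower genes by that criterion, and without control 2 and control 4 it had 13 and 0. Apoc3, the apolipoprotein that slows lipoprotein clearance, was listed at 16.4 FPKM in control 2, 0.0741 in control 1 and 0 in the other 4 controls and in all 6 trained libraries. Fabp1, the fatty acid carrier of liver, was at 25.5 FPKM in control 2, 0.048 to 0.219 in the other controls and 0.0585 to 0.346 in catgut 2. Slc27a2, a fatty acid transporter, was at 1.60 FPKM in control 2 and at most 0.304 elsewhere in control, against 0 to 0.273 FPKM in catgut 2. Albumin mRNA followed the same library, with 134.8 FPKM in control 2 and at most 0.360 in the other 11. All 14 liver markers had negative estimates in the full comparison, 11 of them met the study's criterion and 0 were called by edgeR. Without control 2, 7 of the 14 estimates were positive, 0 met the criterion downward, and the estimate of Fabp1 was 0.56 (adjusted p = 0.68).

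Ucp3, the uncoupling protein of muscle mitochondria, and Pfkfb3, the enzyme that sets the glycolytic activator fructose bisphosphate, differed in spread. Ucp3 had 285.8 and 212.1 FPKM in control 1 and 2 and 16.4 to 69.5 in the other controls, while the trained libraries were close together at 29.5 to 43.8 FPKM (log2 fold change -1.64, adjusted p = 0.21). Pfkfb3 had 24.7 to 116.7 FPKM in control and 7.52 to 22.6 in catgut 2, without overlap (-1.82 ± 0.429, adjusted p = 0.0804). It was the single member below every control among 22 tested genes of glucose uptake and glycolysis, a list with 0 called, 7 positive and 15 negative estimates and a median of -0.12.

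In 3 clock genes, chosen after their values were seen, control 1 and 2 stood apart from the other controls. Arntl, the activator of the circadian oscillator, had 11.4 and 9.26 FPKM in control 1 and 2, 1.11 to 2.32 in the other controls and 0.808 to 2.30 in catgut 2 (log2 fold change -1.67, adjusted p = 0.189). Per2, a repressor of the same loop, ran the other way, with 1.38 and 1.79 FPKM in control 1 and 2, 5.20 to 9.51 in the other controls and 6.68 to 13.1 in catgut 2 (0.78, adjusted p = 0.354). Dbp, an output of the clock, had 7.18 and 10.3 FPKM in control 1 and 2, 71.6 to 139.6 in the other controls and 79.9 to 123.8 in catgut 2. The summed level of the 12 core clock genes was 107.9 and 106.9 FPKM in control 1 and 2 and 103.7 to 160.0 in the other controls. That sum pools genes that ran opposite ways, as Arntl and Per2 did. The summed level of 10 clock output genes did set control 1 and 2 apart, at 146.1 and 141.4 FPKM. It was 287.7 to 382.9 FPKM in the other controls and 257.9 to 365.4 in catgut 2. Of the 12 core clock genes, 0 were called and 1, Arntl, met the study's criterion. Hour of sampling is not given in the labels, so it cannot be told apart from the animals in these libraries.

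The other lists held no called gene in edgeR's test. An unadjusted p under 0.05 was found for 6 of 23 atrophy, 6 of 14 cytokine, 7 of 14 angiogenic and 4 of 15 antioxidant genes. It was found for 3 of 13 regeneration and 1 of 24 matrix genes, beside 2428 of all 14772 tested genes. Over all tested genes, the study's criterion was met upward by 3.52% and downward by 2.44%. Of 23 genes of the glucocorticoid, FoxO and atrophy programs, 2 met the study's criterion upward, Sgk1 (1.06, adjusted p = 0.0669) and Errfi1 (1.37, adjusted p = 0.0577), and 1 downward, the ubiquitin ligase Fbxo32 of muscle wasting, with 25.1 to 92.2 FPKM in control and 19.0 to 47.4 in catgut 2 (-1.005, adjusted p = 0.148). Trim63, its partner in wasting, was at -0.01 (adjusted p = 0.984), and 1 gene of the list was called higher without control 4. Cytokines and chemokines counted 5 upward and 1 downward by that criterion among 14. Cxcl1 was at 0.457 to 2.70 FPKM in control and 1.04 to 12.5 in catgut 2 (1.96, adjusted p = 0.166). DESeq2 called 3 of the 14 higher (Cxcl1, Nfkbia and Socs3), beside 372 higher of all 14772 tested genes. In regeneration genes all 13 estimates were positive, with 3 (Myf5, Myh3 and Myh8) past the study's criterion and a median of 0.32. Matrix genes had a median of 0.065 over 24 (-0.048 without control 2, and 0.23 with 1 called without control 4), antioxidant genes 0.16 over 15 and angiogenic genes 0.31 over 14, with 3 upward (Flt1, Pgf and Vegfa) and 1 downward (Aplnr).

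Among markers of other cells, red cell genes summed to 313.5 to 578.4 FPKM in control and 328.5 to 1872 FPKM in catgut 2, and all 5 had positive estimates with 3 past the study's criterion. Hbb, a globin chain, had 80.9 to 143.6 and 86.1 to 495.9 FPKM (log2 fold change 1.17, adjusted p = 0.167). Endothelial markers summed to 41.8 to 92.5 FPKM in control and 52.5 to 74.2 in catgut 2, overlapping ranges, with all 5 estimates positive and 0 called (1 without control 4). The ranges for fibroblast markers were 81.8 to 579.0 and 115.3 to 589.0 FPKM, and for macrophage and neutrophil markers 24.7 to 71.4 and 20.1 to 53.7 FPKM. Adipocyte markers ran from 398.6 to 744.0 and from 521.7 to 772.7 FPKM, with 7 of 10 estimates negative and a median log2 fold change of -0.74 (-0.13 without control 4). Nerve and Schwann cell markers ran from 1.65 to 29.6 and from 9.88 to 83.2 FPKM. All 11 interferon-response genes had negative estimates in the full comparison, with a median log2 fold change of -1.64 and 3 past the study's criterion. Without control 4 the median was -0.16 with 0 past the criterion, and without control 2 and control 4 all 11 estimates were positive, with a median of 0.63 and 2 (Ifit3 and Usp18) past the criterion upward. Markers of kidney had 3 of 6 genes tested, of T and B cells 2 of 6, and of intestine 0 of 3. The part of these cells in the higher genes was not tested.

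By KEGG pathway the called genes were spread thinly. Of 5307 tested genes with a pathway, 29 were called higher (0.546%) and 10 lower (0.188%). Among pathways of at least 20 tested genes, those with large shares called higher included prion diseases (2 of 28, Egr1 and LOC108348108), antigen processing and presentation (3 of 63), legionellosis (2 of 46), nicotinate and nicotinamide metabolism (1 of 25, Cd38) and olfactory transduction (1 of 28, Rgs2). In the first 3 the chaperones Hspa1b, Hsp90aa1 or LOC108348108 made up the count apart from Egr1. The shares called lower were largest in beta-alanine metabolism (1 of 25), prolactin signalling (2 of 54), cysteine and methionine metabolism (1 of 42), arginine and proline metabolism (1 of 42), JAK-STAT signalling (2 of 97) and glutathione metabolism (1 of 49). Stat5b and Socs7 were the lower genes of prolactin and JAK-STAT signalling, and Sms, which makes spermine (9.81 to 13.5 FPKM in control and 7.89 to 10.0 in catgut 2, adjusted p = 0.0495), was the lower gene of the other 4.

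The named genes were then set beside the other trained groups, each compared with the same 6 control libraries, which the 3 comparisons share. At an adjusted p of 0.05, 8 genes were called in treadmill against control (0.0542%), 3 in catgut 1 against control (0.0203%), 35 in catgut 2 against treadmill (0.237%) and 1 in catgut 2 against catgut 1 (0.00677%). Hspa1b had a mean of 438.2 ± 190.2 FPKM in catgut 2, 597.4 ± 554.0 in catgut 1 and 291.9 ± 383.5 in the treadmill group, against 14.05 ± 6.46 in control (SD, n = 6). Its SD was close to the mean in catgut 1 and above it in the treadmill group, and the log2 difference of catgut 2 from treadmill was 0.56 ± 0.751 (SE, adjusted p = 0.873). Arc had 16.4 ± 5.92, 14.8 ± 8.36 and 13.6 ± 6.67 FPKM in catgut 2, catgut 1 and treadmill, and 1.37 ± 0.619 in control. Its log2 fold change over control was 3.62, 3.45 and 3.36 in the 3 groups, with adjusted p-values of 0.00296, 0.0128 and 0.0126. For Ccn1 the values were 117.2 ± 32.8, 102.5 ± 38.0 and 123.6 ± 42.2 FPKM, and the difference of catgut 2 from treadmill was -0.09 on the log2 scale (adjusted p = 0.954).

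A test of the difference between catgut 2 and treadmill was passed by 3 of the 27 genes named by rule and described here. Fam151a had 2.04 ± 0.528 FPKM in catgut 2, 1.13 ± 0.309 in catgut 1 and 0.728 ± 0.152 in treadmill (log2 difference from treadmill 1.44, adjusted p = 0.0398). Rbm20 had 6.36 ± 0.883, 7.36 ± 1.08 and 10.6 ± 2.01 FPKM (-0.75, adjusted p = 0.023), and Stat5b 16.1 ± 4.06, 21.5 ± 5.01 and 26.7 ± 6.26 FPKM (-0.76, adjusted p = 0.0343). In these 3 genes the treadmill mean lay within 1 SD of the control mean, catgut 1 was between treadmill and catgut 2, and none of them differed between catgut 2 and catgut 1 past the threshold (adjusted p = 1). Of the 35 genes that passed this test, 4 more were among the genes chosen here after their values were seen and were not called against control, Arntl (-2.37, adjusted p = 0.00494), Ucp3 (-1.96, adjusted p = 0.00589), Per2 (2.19, adjusted p = 0.00691) and Npas2, a partner of the clock (-2.51, adjusted p = 0.0427). Arntl had 7.49 ± 2.74 FPKM in the treadmill group and 1.46 ± 0.485 in catgut 2, and Per2 2.10 ± 0.907 and 9.80 ± 2.27 FPKM.

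**Figure D5:**
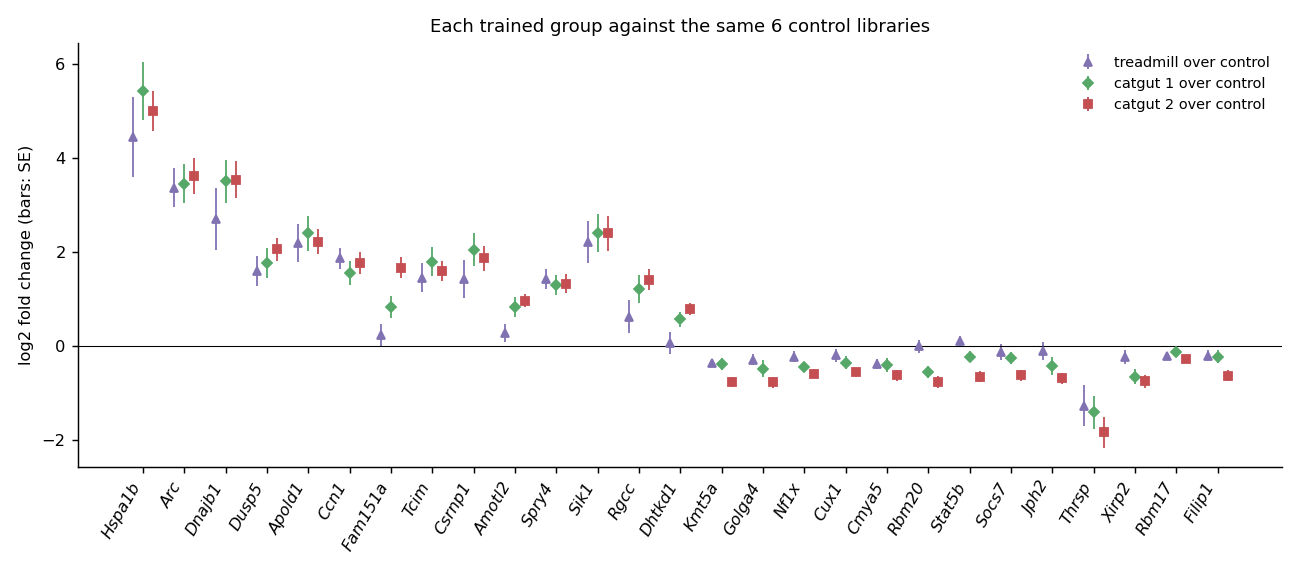
Log2 fold change over control with its SE for the 27 named genes in the treadmill group (triangles), catgut group 1 (diamonds) and catgut group 2 (squares), all against the same 6 control libraries. Arc is at 3.36, 3.45 and 3.62, while Fam151a is at 0.23, 0.83 and 1.67.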

How the data were processed

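Poly(A) RNA from quadriceps was sequenced in pairs by the authors. Their deposited table holds coordinates and pathways for 21067 genes, with counts and FPKM for each library. FPKM is the authors' scaling to transcript length and fragments mapped. The submitters' processing notes name HISAT2 2.0 and StringTie 1.3.0, and the genome build is not given in the sources used here. The deposited counts are whole numbers whose commonest value above 0 is 4, so they may be coverage worked back to counts, and dividing them by 4 was tried as an alternative. The labels' extraction protocol speaks of adipose tissue, while the muscle markers were high in every library.

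Testing was limited to the 14772 genes whose FPKM averaged 0.1 or more across all 24 libraries. The control and catgut 2 libraries were fitted alone with edgeR 4.0.16 in R 4.3.3 (TMM scaling, quasi-likelihood test), and p-values were adjusted by Benjamini-Hochberg over all genes tested. The SE is the size of the log2 fold change divided by the root of F. Fold changes of FPKM are ratios of group means. Genes were named by rule, the 14 higher and 14 lower called genes with a symbol, a mean FPKM of at least 1 in the higher group and the smallest p, and pathways as the 6 largest shares in each direction, apart from 1 gene and 1 pathway that are not reported here. Other genes come from the lists or were named after their values were seen. The lists and members were chosen with earlier results of these data known, and several of the listed genes were not analysed here. Alternatives were median-ratio scaling, DESeq2 1.42.0, limma 3.58.1 on log2(FPKM + 1) and on log2(FPKM + 0.1), other filters on low values, a robust fit, a fit over all 4 groups, a block for replicate number, a covariate for Y-linked expression, each library left out and, chosen after the data were seen, control 2 and control 4 left out together. On counts simulated for this comparison from 14772 genes with 200 changed, edgeR recovered 83.0% of changes of 4-fold and 59.8% of changes of 2-fold, with 6 unchanged genes called. Those counts were drawn with edgeR's own estimates of spread and held no library that stood apart, unlike the data. The labels do not tie each library to an animal, so p-values measure only the spread between these samples, which may be technical.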

Additional observations from a re-analysis of the deposited data

Results flagged for a closer look

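Among 194 groups of 6 values checked, a single library stood apart in 25. Chance flags about 1 in 20 groups, but many of these genes were chosen because a library stood apart in them, so the count is no test. In control 2 these were Nr4a2 at 2.35, Atp2a2 at 67.9, Cxcl1 at 2.70, Alb at 134.8, Atf3 at 8.38, Fabp1 at 25.5, Fos at 121.0, Tnni1 at 122.2, Slc27a2 at 1.60, Lpl at 89.1, Fabp3 at 991.1, Ldhb at 95.5, Myh7 at 144.2, Tpm3 at 81.5, Tnnc1 at 177.0, Myl3 at 943.7, Tnnt1 at 299.6 and Apoc3 at 16.4 FPKM, each above the other 5 controls. Its mitochondrial share was 16.4% of counts, against 11.7% to 13.2%. In control 4, Mx1 was at 44.7 and Irf7 at 176.8 FPKM, above the other controls, and the total count was 61682752, below them. In control 3, LOC108348108 was at 3.76 FPKM. In catgut 2 replicate 2, Fabp1 was at 0.346 and Slc27a2 at 0.273 FPKM, both above the rest of the group.

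The effect over control differed between catgut 2 and the treadmill group for 7 of the genes given (edgeR, adjusted over all genes). The log2 difference of catgut 2 from treadmill was 1.44 for Fam151a, -0.75 for Rbm20, -0.76 for Stat5b, -2.51 for Npas2, -2.37 for Arntl, -1.96 for Ucp3 and 2.19 for Per2.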

How the results depend on the processing

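The 75 genes at an adjusted p under 0.05 became 72 with median-ratio scaling, 70 and 65 with limma, 52 without a filter on low values, 104 at a mean FPKM of at least 1, 74 in the robust fit, 94 over all 4 groups, 84 with counts divided by 4 and 59 without control 2 and control 4. DESeq2 called 695 genes (372 higher, 323 lower, with 1510 left unadjusted), including all 75. On simulated counts it called 37 unchanged genes where edgeR called 6. It also recovered more changes there, 88.6% of 4-fold and 67.9% of 2-fold, against 83.0% and 59.8% in edgeR. The simulation used edgeR's own estimates of spread and held no library that stood apart, so it cannot decide between the tools. With the Y-linked level as a covariate there were 128 (92 higher, 36 lower). With the replicate block there were 0 in edgeR's test, and 2282 at an unadjusted p under 0.05. Same-numbered libraries of the groups deviated together with correlations from -0.19 to 0.11, and the labels tie no pair to a litter, cage or day, so the numbers do not pair the samples. Leaving out 1 library gave 12 to 492 genes, and the cause was not tested. Genes past the study's criterion numbered 880, 1344 without a filter, 536 at a mean FPKM of at least 1, 759 with the replicate block, 753 to 1101 with 1 library left out and 1028 (824 higher, 204 lower) without control 2 and control 4. The sign turned for Fabp1 without control 2 (0.56 on the log2 scale, against -5.24 to -4.72 with any other library left out), and without control 2 and control 4 for Fabp1 (0.51), Slc27a2 (1.24), Mx1 (0.64) and Irf7 (0.51), none of them called. Counts of about 12 or less, the equivalent of 3 fragments, were at the limit of detection.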

Other observations

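Some called genes that no list held were low throughout or filed under themes not described above. Rgs2, a brake on G protein signalling, had 2.36 to 5.49 FPKM in control and 6.55 to 35.1 in catgut 2 (adjusted p = 0.0417). Gsta1, a glutathione transferase, had 11.9 to 18.3 and 16.3 to 32.3 FPKM (adjusted p = 0.0495). Adamtsl4, a secreted microfibril protein, had 8.89 to 13.5 and 17.7 to 28.6 FPKM (adjusted p = 0.0245). On the lower side, Upf2, of nonsense-mediated decay, had 4.42 to 9.44 and 2.33 to 4.41 FPKM (adjusted p = 0.0445), Eif5b, which joins ribosomal subunits, had 14.9 to 28.5 and 8.43 to 15.8 FPKM (adjusted p = 0.0417), and Uaca, a coiled-coil regulator of cell death, had 42.9 to 68.0 and 23.2 to 40.8 FPKM (adjusted p = 0.0392). The 165 tested genes of the KEGG ribosome pathway had a median log2 fold change of 0.035, with 0 called and 1 past the study's criterion, which was lower.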
